A study of Mus musculus with 15 samples.

Results

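The 10 genes described here are serpins of clade A from a cluster on mouse chromosome 12, taken by symbol from the 17527 genes of the deposited table, where all 10 were found. Serpina1a, Serpina1b, Serpina1c, Serpina1d and Serpina1e encode alpha-1-antitrypsins. Serpina3k, Serpina3m, Serpina3n and Serpina3g are paralogs of one another and mouse counterparts of human SERPINA3. Serpina6 encodes corticosteroid-binding globulin, the plasma carrier of glucocorticoids, which inhibits no protease. Inhibitory serpins present a flexible reactive centre loop as bait, are cleaved in it and trap the attacking protease. Humans have a single SERPINA1 gene for alpha-1-antitrypsin, the plasma inhibitor of neutrophil elastase, and a single SERPINA3 gene for alpha-1-antichymotrypsin, an acute-phase protein, whereas both have multiplied in the mouse. The liver secretes most of these products into plasma.

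The data were RNA sequencing values of 15 mouse livers in 3 groups of 5. BBBPH mice were given biotransformed bear bile powder by mouth at 150 mg/kg each day, and model mice saline, in both cases after 12 weeks of a diet that lasted 20 weeks and was meant to cause nonalcoholic steatohepatitis. Fat gave 60% of the kilocalories of that diet, protein 20% and carbohydrate 20%, with 0.2% cholesterol added, and sugar was dissolved in the water at 42 g/L (sucrose 55%, fructose 45%). What control mice ate, and the strain, sex and age of any mouse, are not given in the labels, which count 14 mice in the dosed group without saying how the 5 were picked. Differences are given as log2FC, the log2 fold change of FPKM + 1 fitted by limma, a linear model over all genes, with its standard error (SE), and a gene is called at an adjusted p under 0.05. The mice of a group were separate samples, and p-values set a difference between groups against the spread between mice. In limma that spread was estimated over all 3 groups, so a liver outside a comparison also bears on its p-value. Values are FPKM, fragments counted for a gene, scaled for transcript length and library depth. Levels may thus be compared between genes, but less surely between near copies that share fragments. Group values are means ± SD (n = 5 libraries). Per-library values are listed in the order 2_1, 2_2, 3_1, 3_2 and 3_4 for BBBPH, 1_1, 1_4, 2_1, 2_3 and 3_4 for model, and 1_1, 1_5, 2_1, 2_2 and 3_4 for control.

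Libraries rested on 35395712 to 39624160 fragments, and the least expressed member, Serpina3g, still had 317 to 1017 fragments in them. All 7 hepatocyte markers found in the table were expressed, with a summed level of 62340 to 73580 FPKM in BBBPH livers, 36150 to 61550 FPKM in model livers and 67140 to 75570 FPKM in control livers. Against control livers, 5 of the 7 were lower in model livers by limma and none higher, and 3 of the 7 were higher in BBBPH than in model livers. The first count was 3 without control 1_5. Of all genes tested, 29.9% were higher and 8.64% lower in model than in control livers, and 14.2% were higher in BBBPH than in model livers. These were bulk samples, in which fewer hepatocytes and less RNA per hepatocyte cannot be told apart. A library in each group stood apart from the rest. In model 1_4 the serum amyloid gene Saa2 reached 14965 FPKM, with no more than 194 FPKM in any other library, BBBPH 2_2 held 978 FPKM of the pancreatic gene Ctrb1, and control 2_1 held 70.0 FPKM of the muscle gene Tnnt3. Results that turned on 1 of them are given with and without it.

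In model livers against control livers, 9 of the 10 members were called. Lower were 6 of them, namely Serpina1a, Serpina1c, Serpina1d, Serpina1e, Serpina3k and Serpina6, where 8.64% of all 9575 genes tested were lower. Higher were the other 3, Serpina3m, Serpina3n and Serpina3g, where 29.9% of all genes were higher. The median log2 fold change of the members was -0.48, and that of all genes 0.117. In BBBPH against model livers, 3 members were higher (Serpina1a, Serpina1e and Serpina6), where 14.2% of all genes were higher, and none was lower, where 12.2% were, nor did any reach an unadjusted p under 0.05 in that direction, or a call with voom. Their median log2 fold change was 0.15, and that of all genes 0.0192. In BBBPH against control livers, Serpina3m was higher, where 24.4% of all genes were, and Serpina1d and Serpina3k were lower, where 3.7% were. The members' median was 0.07 there, and that of all genes 0.133. Both comparisons with BBBPH use the same 5 BBBPH libraries, both with model the same 5 model libraries and both with control the same 5 control libraries, so their counts are not independent. The choice of scaling shifted all genes together, and with median-ratio scaling the median over all genes moved by over 0.1 on the log2 scale, to -0.012 in model against control and to -0.015 in BBBPH against control. The shares of all genes called are thus not fixed. With that scaling 1480 of 9559 genes were higher and 1812 lower in model against control livers, in place of 2865 and 827 of 9575. In BBBPH against control livers 661 were higher and 944 lower, in place of 2337 and 354.

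**Figure D1:**
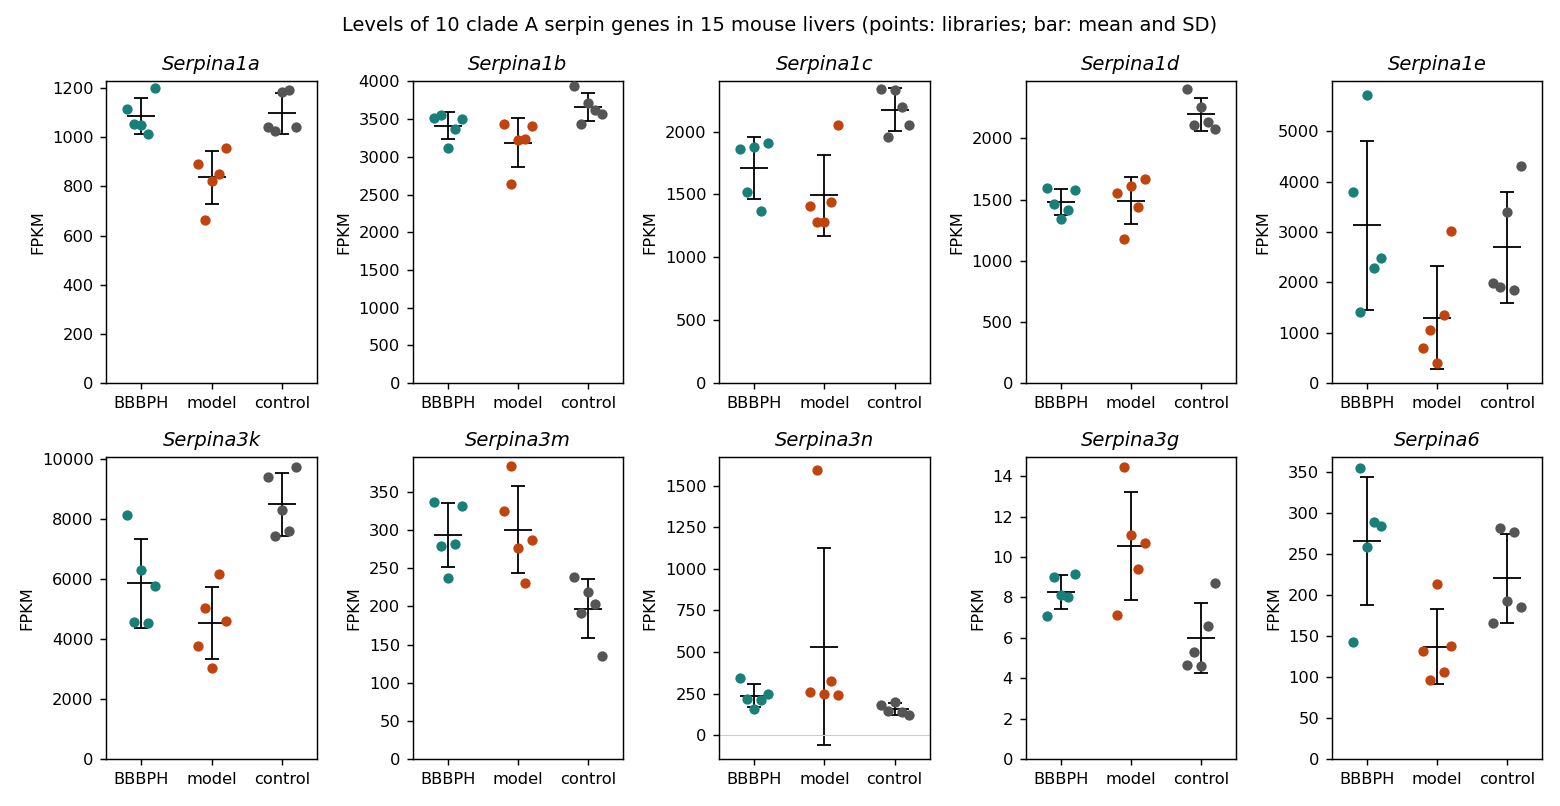
FPKM (vertical axis) of each of the 10 genes in each library, by group, with points for libraries and bars for the mean and SD. Serpina1d lay at 1667 FPKM or less in every BBBPH and model liver and at 2077 FPKM or more in every control liver, while the BBBPH and control livers overlapped in Serpina1a, and 1 model liver held 1591 FPKM of Serpina3n.

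By mean level over all libraries, Serpina3k was the 8th most abundant of the 17527 genes. Serpina1b came 17th, Serpina1e 27th, Serpina1c 33rd, Serpina1d 34th and Serpina1a 64th, followed by Serpina3n at 233rd, Serpina3m at 266th and Serpina6 at 347th. Serpina3g, at 4241st, was the only member below 20 FPKM in every library. Together the 10 genes made up 3.54 ± 0.607% of all FPKM in BBBPH livers, 2.83 ± 0.4% in model livers and 4.24 ± 0.474% in control livers. In control livers the order was Serpina3k, Serpina1b, Serpina1e, Serpina1d, Serpina1c, Serpina1a, Serpina6, Serpina3m, Serpina3n and Serpina3g. Neighbours there whose means differed by less than the larger of their SDs were Serpina1b and Serpina1e, Serpina1e and Serpina1d, Serpina1d and Serpina1c, and Serpina6 and Serpina3m. In model livers Serpina1e stood behind Serpina1c and Serpina1d, and Serpina3n ahead of Serpina3m, in each case by less than the larger SD. The order among the Serpina1 genes also rests on how fragments that fit several of them were counted, which is not given.

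The members lie within 767.705 kb of chromosome 12 in the GRCm38.p6 annotation of RefSeq, with other clade A serpin genes and pseudogenes between them. From the proximal end come Serpina6 (103646630 to 103657218), Serpina1b (103728156 to 103738189), Serpina1d (103763587 to 103773633), Serpina1a (103853295 to 103863619), Serpina1c (103894926 to 103904950) and Serpina1e (103946931 to 103956897), all 6 on the minus strand. Serpina3g (104236147 to 104241939), Serpina3k (104338486 to 104345739), Serpina3m (104387157 to 104394259) and Serpina3n (104406646 to 104414334) follow on the plus strand. Neighbours did not share a direction in model against control livers, since Serpina3k was lower and the adjacent members Serpina3g and Serpina3m were higher.

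**Figure D2:**
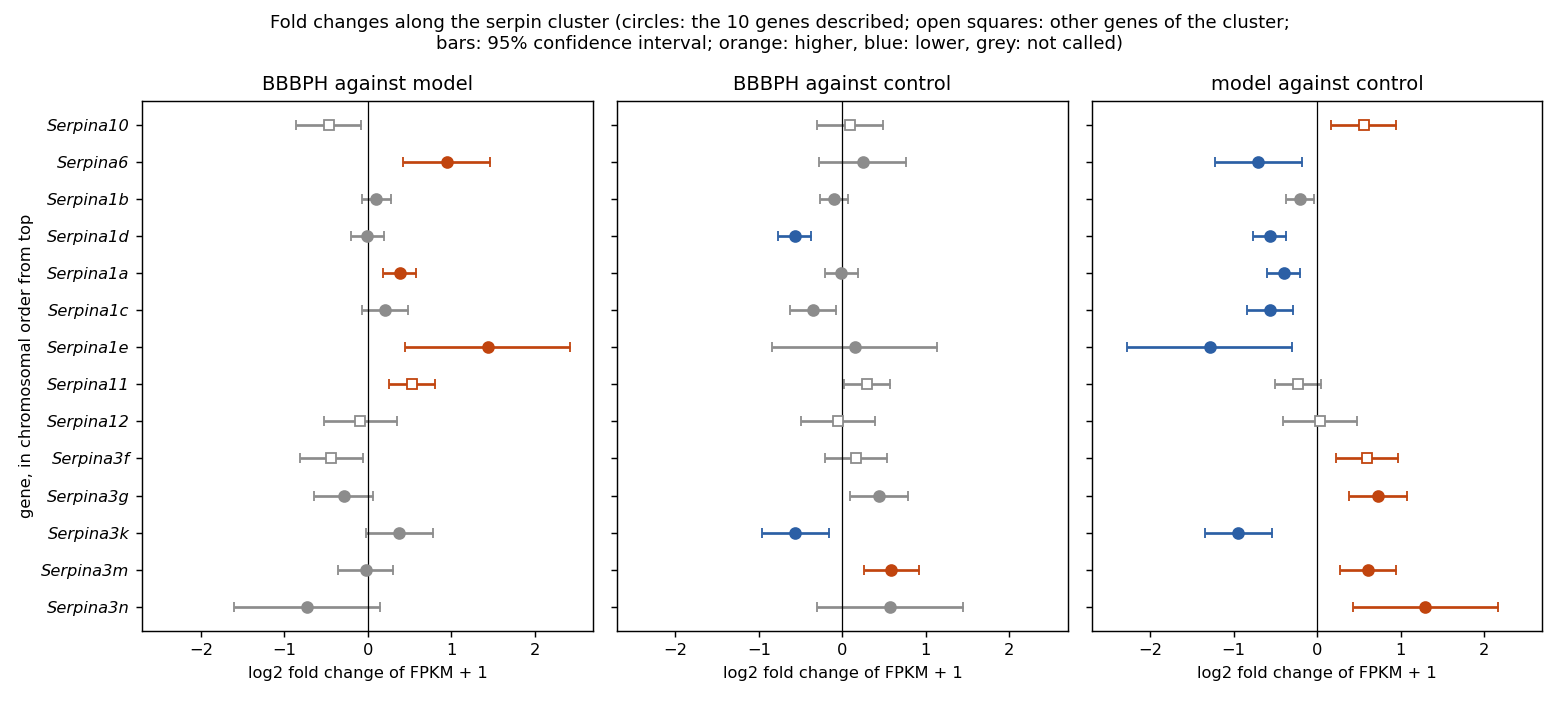
Log2 fold change of FPKM + 1 (horizontal axis) for the members and 4 other expressed genes of the cluster, in chromosomal order from the top, with bars for the 95% confidence interval. In model against control livers the alpha-1-antitrypsin genes and Serpina3k lie left of 0 and the other Serpina3 genes right of it, and in BBBPH against model livers Serpina6, Serpina1a, Serpina1e and Serpina11 are the genes called higher.

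The 5 alpha-1-antitrypsin genes are near copies. Their coding sequences were 96.3% to 98.5% identical in pairs, but the differences cluster in the reactive centre loop, where the serpin offers its bait to a protease. Over 72 bases that begin at the hinge of the loop, 17 aligned positions (23.6%) differed among the 5 genes, against 69 of 1170 positions (5.90%) in the rest of the coding sequence. These stretches are shown 5′ to 3′ on the coding strand, with the positions that differ among the 5 genes in capitals. All lie in the last coding exon, on the minus strand of GRCm38, at chr12:103853759-103853830 for Serpina1a, chr12:103728326-103728397 for Serpina1b, chr12:103895096-103895167 for Serpina1c, chr12:103763764-103763835 for Serpina1d and chr12:103947102-103947173 for Serpina1e.
Serpina1a: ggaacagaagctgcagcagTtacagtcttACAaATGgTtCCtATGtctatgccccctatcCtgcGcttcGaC
Serpina1b: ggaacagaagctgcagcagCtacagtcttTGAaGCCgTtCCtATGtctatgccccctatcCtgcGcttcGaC
Serpina1c: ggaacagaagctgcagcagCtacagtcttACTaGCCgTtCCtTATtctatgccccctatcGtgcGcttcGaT
Serpina1d: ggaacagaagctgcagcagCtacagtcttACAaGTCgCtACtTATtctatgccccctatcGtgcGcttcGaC
Serpina1e: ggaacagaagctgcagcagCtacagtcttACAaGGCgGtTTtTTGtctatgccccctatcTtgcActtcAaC

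Such likeness bears on the values. Of all stretches of 100 bases in the reference transcript, the share found also in another gene was 58.5% for Serpina1c, 49.9% for Serpina1a, 29.3% for Serpina1d, 26.4% for Serpina1b and 18.2% for Serpina1e, and the paralog that Serpina1c shared most with was Serpina1a (58%). How fragments that fit more than 1 paralog were counted is not given in the sources used here, so the split among the 5, Serpina1a and Serpina1c above all, is uncertain. In Serpina3k, Serpina3m and Serpina3g the share was 4.64% to 6.09%, in Serpina3n 0.204%, and in Serpina6 no such stretch was found elsewhere.

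Among the alpha-1-antitrypsin genes, Serpina1a and Serpina1d were both lower in model than in control livers. Of this pair only Serpina1a was called higher again in BBBPH livers. Serpina1e was also called lower and then higher, though not firmly, and is described below. Serpina1a held 1113, 1053, 1051, 1012 and 1202 FPKM in the BBBPH livers, 890.5, 664, 821, 852 and 957 FPKM in the model livers and 1042, 1025, 1185, 1190.2 and 1042 FPKM in the control livers. Every model liver lay below every liver of the other groups, and the BBBPH and control livers overlapped. Its mean was 1086 ± 73.9 FPKM in BBBPH, 837 ± 109 FPKM in model and 1097 ± 83.1 FPKM in control livers. By limma Serpina1a was lower in model than in control livers (log2FC -0.40 ± 0.09 SE, limma adjusted p = 0.00378) and higher in BBBPH than in model livers (log2FC 0.38 ± 0.09 SE, limma adjusted p = 0.00679). Between BBBPH and control livers it was not called (log2FC -0.01, limma adjusted p = 0.925, 95% interval -0.21 to 0.18).

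Serpina1d held 1596, 1464, 1341, 1417 and 1578 FPKM in the BBBPH livers, 1551, 1182, 1612, 1439 and 1667 FPKM in the model livers and 2407, 2109, 2256, 2130.0 and 2077 FPKM in the control livers. Here the BBBPH and model livers overlapped, and all 10 of them lay below all control livers. Serpina1d was lower in model than in control livers (log2FC -0.57 ± 0.09 SE, limma adjusted p = 0.000312) and lower in BBBPH than in control livers (log2FC -0.57 ± 0.09 SE, limma adjusted p = 0.000811). Between BBBPH and model livers it was not called (log2FC -0.0036, limma adjusted p = 0.984, 95% interval -0.20 to 0.19). Both calls held under every alternative scaling, filter and left-out library.

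The unequal change was tested on ratios within a library, which no scaling of a library can move. They still rest on how fragments that fit several paralogs were counted, above all the ratios with Serpina1a or Serpina1c. This test was chosen after the values had been seen and covered all 10 pairs of the 5 genes in 3 comparisons, with exact 2-sided permutation tests over libraries (smallest possible p 0.00794) adjusted over the 30. Serpina1a over Serpina1d was 0.698, 0.719, 0.784, 0.714 and 0.762 in BBBPH livers, 0.574, 0.562, 0.509, 0.592 and 0.574 in model livers and 0.433, 0.486, 0.525, 0.559 and 0.502 in control livers. The BBBPH livers lay above all others. The ratio was higher in BBBPH than in model livers (log2 difference 0.39, exact permutation p = 0.00794, adjusted p = 0.0397) and than in control livers (log2 difference 0.56, same p values), while model against control did not pass (log2 difference 0.17, exact permutation p = 0.0476, adjusted p = 0.13). Of the 30 tests 6 passed, each at the smallest possible p, which here is the same as no overlap between groups. The tests share genes and libraries, so they are not independent. The other 4 were Serpina1a over Serpina1b in BBBPH against model livers (log2 difference 0.28), Serpina1a over Serpina1c in BBBPH against control livers (0.34), and Serpina1b over Serpina1d in model and in BBBPH livers, each against control livers (0.37 and 0.47). No ratio with Serpina1e passed.

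Serpina1c was lower in model livers, while Serpina1b, the most abundant of the 5 in most livers, missed the threshold. Serpina1c held 1864, 1521, 1881, 1368 and 1913 FPKM in the BBBPH livers, 1407, 1281, 1284, 1437 and 2054 FPKM in the model livers and 2335, 1956, 2333, 2195 and 2049 FPKM in the control livers. Model 3_4, at 2054 FPKM, stood apart from the other 4 model livers. Serpina1c was lower in model than in control livers (log2FC -0.56 ± 0.13 SE, limma adjusted p = 0.00357), and in BBBPH against model livers it was not called (log2FC 0.21, limma adjusted p = 0.265), and it was called only without model 3_4 (log2FC 0.33, limma adjusted p = 0.037). Every BBBPH liver lay below every control liver, yet the difference missed the threshold (log2FC -0.36, limma adjusted p = 0.0527) and passed it under 11 of 29 alternatives, among them TPM, median-ratio and quantile scaling and the fits without BBBPH 2_1, BBBPH 3_4, model 1_4 or model 3_4 (limma adjusted p = 0.0138 to 0.05).

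Serpina1b held 3513, 3549, 3114, 3372 and 3505 FPKM in the BBBPH livers, 3438, 2637, 3221, 3238 and 3415 FPKM in the model livers and 3940.2, 3442, 3721, 3619 and 3569 FPKM in the control livers. All model livers lay below all control livers, the nearest pair being model 1_1 and control 1_5. Serpina1b was the member that limma did not call in model against control livers (log2FC -0.20 ± 0.08 SE, limma adjusted p = 0.0586). It passed without model 1_1 or without model 3_4 (limma adjusted p = 0.0472 and 0.0475), with a filter at 5 FPKM (0.0440), with no trend in the variance prior (0.0408), with library weights (0.0331) and with median-ratio scaling (log2FC -0.36, limma adjusted p = 0.00703). In BBBPH against model livers (log2FC 0.10, limma adjusted p = 0.383) and against control livers (log2FC -0.10, limma adjusted p = 0.359) it was not called, except in the second with median-ratio scaling (limma adjusted p = 0.0497).

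Of the 5 alpha-1-antitrypsin genes, Serpina1e had the largest coefficient of variation within each group, 53.4% in BBBPH, 78.3% in model and 41.2% in control livers. Serpina1e held 3797, 1418, 5727, 2279 and 2479 FPKM in the BBBPH livers, 695, 1063, 400.3, 1348 and 3013 FPKM in the model livers and 1994, 1912, 3393, 1860.2 and 4318 FPKM in the control livers. The lowest was model 2_1 and the highest BBBPH 3_1, model 3_4 lay among the livers of the other groups, and the groups overlapped in every comparison. Serpina1e made up 27.7 ± 10.6% of the summed FPKM of the 5 genes in BBBPH livers, 14.6 ± 8.35% in model livers and 22.3 ± 7.16% in control livers. By limma it was lower in model than in control livers (log2FC -1.29 ± 0.47 SE, limma adjusted p = 0.0392) and higher in BBBPH than in model livers (log2FC 1.44 ± 0.47 SE, limma adjusted p = 0.0327). Neither call was firm. The first ended without model 1_1, model 1_4, model 2_1, control 2_1 or control 3_4 (limma adjusted p = 0.0587 to 0.107), with no filter on low values (0.0771), with a robust fit (0.06) and without the 3 libraries that stood apart (0.0935). The second ended without BBBPH 2_1, BBBPH 3_1, model 1_1, model 1_4 or model 2_1 (limma adjusted p = 0.0526 to 0.0845), with no filter (0.0672), with a robust fit (0.0523) and with only BBBPH and model libraries in the fit (0.0588). In BBBPH against control livers it was not called (log2FC 0.15, limma adjusted p = 0.834, 95% interval -0.84 to 1.14).

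Summed over the 5 genes, alpha-1-antitrypsin transcripts came to 10825 ± 1702 FPKM in BBBPH livers, 8313 ± 1664 FPKM in model livers and 11820.2 ± 1146 FPKM in control livers. Without Serpina1e the sums were 7685 ± 444 FPKM, 7009 ± 838 FPKM and 9125 ± 499 FPKM in the same order. The SD of the total was thus larger with Serpina1e than without it in every group.

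**Figure D3:**
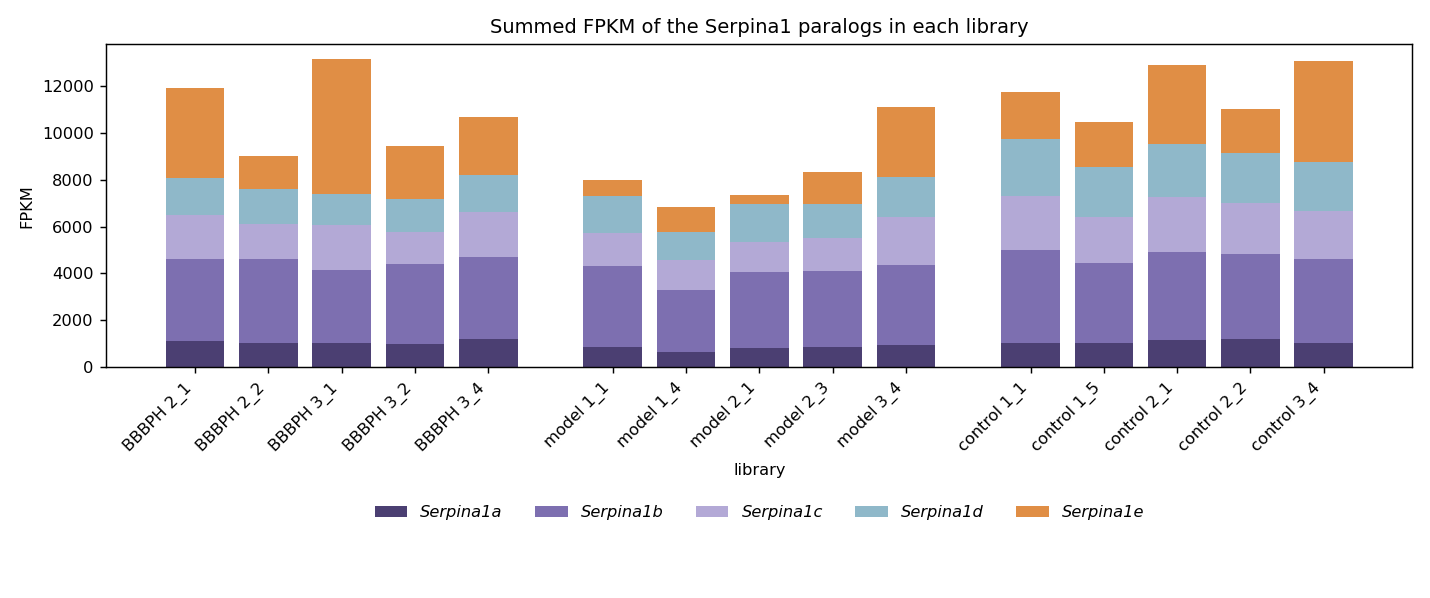
FPKM of the 5 alpha-1-antitrypsin genes stacked for each library (vertical axis, from 0), grouped as BBBPH, model and control. Serpina1e, the top segment, ran from 400.3 FPKM in model 2_1 to 5727 FPKM in BBBPH 3_1, while the other 4 segments together stayed between 5763 and 9724 FPKM.

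The reference promoters of the 5 genes were compared, since Serpina1e varied more within groups than the other 4. RefSeq promoter windows of 250 bases before to 50 bases after the annotated start were found for 7 of the 10 members, all but Serpina3k, Serpina3m and Serpina6. Across the 5 alpha-1-antitrypsin genes, 211 of 241 aligned positions (87.6%) were the same. Serpina1b and Serpina1e were 98.3% identical over 238 aligned bases. Their 250 bases before the start are shown with the bases that differ between the pair, or are found in Serpina1b only, in capitals, on the minus strand of GRCm38.p6, at chr12:103738190-103738439 for Serpina1b and chr12:103956898-103957147 for Serpina1e, whose annotated starts are offset.
Serpina1b: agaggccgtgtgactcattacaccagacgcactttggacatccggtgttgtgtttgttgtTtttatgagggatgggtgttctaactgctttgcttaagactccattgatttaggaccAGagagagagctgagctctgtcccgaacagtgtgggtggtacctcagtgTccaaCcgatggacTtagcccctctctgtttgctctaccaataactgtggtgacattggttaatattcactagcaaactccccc
Serpina1e: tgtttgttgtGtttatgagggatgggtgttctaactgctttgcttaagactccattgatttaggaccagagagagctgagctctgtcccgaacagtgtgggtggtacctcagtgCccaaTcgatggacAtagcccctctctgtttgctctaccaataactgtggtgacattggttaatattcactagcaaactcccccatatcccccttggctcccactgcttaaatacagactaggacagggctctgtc

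Of the Serpina3 genes, the most abundant fell in model livers and the other 3 rose. Serpina3k held 8136, 4566, 6306, 4547 and 5758 FPKM in the BBBPH livers, 3783, 5024, 3038, 6186 and 4617 FPKM in the model livers and 9421, 7435, 8301, 7598 and 9751 FPKM in the control livers. Serpina3k encodes contrapsin, a plasma inhibitor of trypsin-like proteases. Every model liver lay below every control liver, and BBBPH 2_1 was the single BBBPH liver above the lowest control liver. Serpina3k was lower in model than in control livers (log2FC -0.94 ± 0.19 SE, limma adjusted p = 0.00126). It was also lower in BBBPH than in control livers (log2FC -0.56 ± 0.19 SE, limma adjusted p = 0.0355), but this call ended without BBBPH 2_2, BBBPH 3_2, BBBPH 3_4, control 1_1, control 2_1 or control 3_4 (limma adjusted p = 0.0538 to 0.0958), with no filter (0.099), with quantile scaling (0.0542) and without the 3 libraries that stood apart (0.112). It was not called between BBBPH and model livers (log2FC 0.38, limma adjusted p = 0.151, 95% interval -0.02 to 0.78).

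Serpina3m held 337, 279, 237, 282 and 332 FPKM in the BBBPH livers, 325, 384, 276, 231 and 287 FPKM in the model livers and 239, 191, 218, 203 and 134 FPKM in the control livers. Control 3_4 was the lowest liver and model 1_4 the highest, and control 1_1 lay just above the lowest livers of the other groups. Serpina3m was higher in model than in control livers (log2FC 0.61 ± 0.16 SE, limma adjusted p = 0.00661) and higher in BBBPH than in control livers (log2FC 0.59 ± 0.16 SE, limma adjusted p = 0.0131). The second call ended with median-ratio scaling (log2FC 0.41, limma adjusted p = 0.105). Between BBBPH and model livers it was not called, with a log2 fold change of -0.02 (limma adjusted p = 0.928, 95% interval -0.36 to 0.31).

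Serpina3n encodes an acute-phase inhibitor of granzyme B, cathepsin G and neutrophil elastase. Serpina3n held 346, 219, 158, 214 and 249.97 FPKM in the BBBPH livers, 258, 1591, 247, 325 and 243 FPKM in the model livers and 182, 145, 202, 139 and 119 FPKM in the control livers. All model livers lay above all control livers, and 1 of them, model 1_4, held more than the other 4 together. Serpina3n was higher in model than in control livers (log2FC 1.30 ± 0.41 SE, limma adjusted p = 0.021), and without model 1_4 the log2 fold change was 0.78 (limma adjusted p = 0.00627). Between BBBPH and model livers Serpina3n was not called (log2FC -0.73, limma adjusted p = 0.21), with -0.21 (limma adjusted p = 0.463) when model 1_4 was left out. Set against control livers, BBBPH livers did not pass (log2FC 0.57, limma adjusted p = 0.308) except without model 1_4, where the same fold change passed (limma adjusted p = 0.0301), and without the 3 libraries that stood apart (log2FC 0.68, limma adjusted p = 0.0283). The ratio of Serpina3n to Serpina3k was 0.0412 ± 0.00933 in BBBPH livers, 0.114 ± 0.114 in model livers and 0.0187 ± 0.004317 in control livers, and it was 0.0637 ± 0.0140 in the 4 model livers other than model 1_4. Its ranges in the 3 groups did not overlap (0.0251 to 0.0480, 0.0525 to 0.317 and 0.0122 to 0.0243). The ratio sets a gene that was higher in model livers over one that was lower, and no test was made of it. Between BBBPH and model livers neither gene was called.

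Serpina3g encodes an intracellular inhibitor of cysteine cathepsins that is known in the mouse mainly from blood cells under interferon. Serpina3g held 7.10, 9.02, 8.09, 8.01 and 9.14 FPKM in the BBBPH livers, 7.11, 14.5, 11.1, 9.40 and 10.7 FPKM in the model livers and 4.67, 5.28, 4.59, 6.59 and 8.72 FPKM in the control livers. It was higher in model than in control livers (log2FC 0.73 ± 0.16 SE, limma adjusted p = 0.00289), with control 3_4 and model 1_1 in the range of the other group. It was not called in BBBPH against model livers (log2FC -0.29, limma adjusted p = 0.211). In BBBPH against control livers it just missed the threshold (log2FC 0.44, limma adjusted p = 0.0564) and passed it with library weights, with only BBBPH and control libraries in the fit, and without BBBPH 2_1, model 1_1, model 1_4 or control 3_4 (limma adjusted p = 0.0105 to 0.0492). The summed level of 7 T and NK cell markers was 3.65 to 6.39 FPKM in BBBPH livers, 3.05 to 7.38 FPKM in model livers and 3.26 to 5.01 FPKM in control livers, and that of 8 Kupffer cell and macrophage markers 229 to 364 FPKM, 210 to 335 FPKM and 206 to 278 FPKM in the same order. Summed neutrophil markers ran from 6.54 to 126 FPKM in BBBPH livers, 12.3 to 79.5 FPKM in model livers and 2.54 to 35.97 FPKM in control livers, and of the 4 that were tested 2 were called higher in model than in control livers, 0 to 4 as single libraries were left out. Summed dendritic cell markers ran from 0.802 to 1.28 FPKM in BBBPH livers, 1.23 to 2.39 FPKM in model livers and 0.640 to 1.34 FPKM in control livers, each marker too low to be tested. The part of these cells in the result was not tested.

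The reactive centre loops of the 3 abundant Serpina3 genes are shown for comparison. Over the same 72 bases from the hinge, 34 aligned positions differed among Serpina3k, Serpina3m and Serpina3n, shown in capitals, while their whole coding sequences were 91.3% (Serpina3k and Serpina3m), 85.2% (Serpina3m and Serpina3n) and 82.7% (Serpina3k and Serpina3n) identical. The stretches lie in the last exon on the plus strand of GRCm38, at chr12:104345269-104345340, chr12:104393769-104393840 and chr12:104413448-104413519.
Serpina3k: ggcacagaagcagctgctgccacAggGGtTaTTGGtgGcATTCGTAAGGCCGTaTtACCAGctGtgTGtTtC
Serpina3m: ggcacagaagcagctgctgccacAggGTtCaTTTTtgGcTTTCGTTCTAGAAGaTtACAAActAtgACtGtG
Serpina3n: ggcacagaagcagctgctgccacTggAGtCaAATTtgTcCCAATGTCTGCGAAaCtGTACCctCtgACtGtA

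The promoters of Serpina3g and Serpina3n, both higher in model livers, were searched on both strands of the 300-base windows for 4 motifs of factors known from inflammation. These were STAT (TTCNNNGAA, in 8.29% of 32817 mouse promoter windows), CEBP (TTGCNNAA, 10.8%), IRF (GAAA, any 2 bases and GAAA, 3.43%) and NFKB (GGGA, any 4 bases and CC, 20.7%). The window of Serpina3g held 1 STAT match, from base -33 to base -25 of the start, and that of Serpina3n held 2 NFKB matches, from -170 to -161 and from -43 to -34. A match is a run of letters and not a measure of binding. For Serpina3n the promoter table takes a start at 104406708, 62 bases inside the annotated gene, so the second NFKB match lies within the gene span given above. The bases before each annotated gene are shown on the plus strand of GRCm38.p6 with the matches in capitals, 250 bases at chr12:104235897-104236146 for Serpina3g and 188 bases at chr12:104406458-104406645, which hold the first NFKB match, for Serpina3n.
Serpina3g: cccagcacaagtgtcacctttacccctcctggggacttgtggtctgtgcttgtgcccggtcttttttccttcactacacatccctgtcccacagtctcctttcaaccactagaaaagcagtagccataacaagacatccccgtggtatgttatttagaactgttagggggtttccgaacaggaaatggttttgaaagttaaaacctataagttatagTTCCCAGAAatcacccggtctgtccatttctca
Serpina3n: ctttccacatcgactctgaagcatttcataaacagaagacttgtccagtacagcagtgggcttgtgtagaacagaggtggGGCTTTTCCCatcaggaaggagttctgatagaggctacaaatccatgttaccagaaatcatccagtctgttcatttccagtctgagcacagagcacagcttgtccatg

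Serpina6 was lower in model livers and higher again under BBBPH. Serpina6 held 142, 355, 258, 289 and 284 FPKM in the BBBPH livers, 131, 96.3, 213, 106 and 138 FPKM in the model livers and 166, 281, 192, 277 and 185 FPKM in the control livers. BBBPH 2_1 lay apart from the other 4 BBBPH livers, within the range of the model group, and model 2_1 was the model liver that reached the control range. The mean was 265 ± 77.6 FPKM in BBBPH, 137 ± 46.0 FPKM in model and 220.2 ± 54.4 FPKM in control livers. Serpina6 was higher in BBBPH than in model livers (log2FC 0.95 ± 0.24 SE, limma adjusted p = 0.01), which was lost without the 3 libraries that stood apart (log2FC 0.72, limma adjusted p = 0.0722). It was lower in model than in control livers (log2FC -0.70 ± 0.24 SE, limma adjusted p = 0.033), but not without model 1_1, model 1_4, model 2_3, control 1_5 or control 2_2 (limma adjusted p = 0.0534 to 0.0808), with no filter (0.0627) or without the 3 libraries (0.0764). Between BBBPH and control livers it was not called (log2FC 0.24, limma adjusted p = 0.474).

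Within groups, Serpina6 and Serpina3k ran against each other. After each group's mean was removed, their log2 levels had a Pearson r of -0.88 over the 15 libraries, the lowest of the 45 pairs of members, and BBBPH 2_1 held the most Serpina3k and the least Serpina6 of its group. The highest of the 45 was that of Serpina1b and Serpina1d (0.91). The points share their libraries, no test was made, and the pairs were picked for their values.

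For each member the 3 most alike genes were taken as those with the highest Pearson r of log2(FPKM + 1) over the 15 libraries among 9407 named genes that averaged 1 FPKM or more. All r values describe these libraries, which the group differences drive in part, and carry no test. Serpina1a was most alike Igfbp2 (r = 0.93), Proc (0.89) and Il1rap (0.89), which encode a binding protein of insulin-like growth factors, the anticoagulant protein C and a chain of the interleukin-1 receptor. Serpina1b was most alike Asl (0.90), Alb (0.89) and Ahcy (0.89), genes of the urea cycle, albumin and the methionine cycle. Serpina1c was most alike Kyat1 (0.86), Mup3 (0.86) and Ces3b (0.85). Serpina1d was most alike Serpinf1 (0.96), which encodes the serpin PEDF, and then Ces2a (0.95) and Glt1d1 (0.94).

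Serpina1e was most alike Fam222b (r = 0.86), Hsd3b5 (0.84) and C6 (0.83). Hsd3b5, a steroid dehydrogenase gene expressed in male mouse liver under growth hormone, held 88.4, 73.1, 176, 125 and 96.1 FPKM in BBBPH livers, 3.74, 5.35, 1.39, 10.5 and 47.6 FPKM in model livers and 145, 169, 181, 146 and 143 FPKM in control livers. The 5 model livers had the same order in both genes, from model 2_1 to model 3_4. Among BBBPH livers, BBBPH 2_2 was the lowest and BBBPH 3_1 the highest in both genes. Control livers did not share an order, since control 3_4 held the most Serpina1e and the least Hsd3b5 of them. With group means removed r was 0.82. Serpina3k was most alike C8b (0.93), Cyp4a12b (0.91) and Cadm4 (0.89), the first a gene of terminal complement and the second, like Hsd3b5, male-biased in mouse liver. Serpina3m was most alike Tmprss2 (0.92), Nubpl (0.90) and Lrrc8d (0.88).

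Serpina3n was most alike Lcn2 (r = 0.96), Prg4 (0.96) and Cyb561 (0.96), and without model 1_4 these were 0.92, 0.84 and 0.83. Lcn2, an acute-phase gene for lipocalin-2, held 51.2, 17.4, 8.22, 8.13 and 18.4 FPKM in BBBPH livers, 33.4, 2236, 35.3, 92.3 and 19.4 FPKM in model livers and 3.31, 3.32, 3.89, 2.21 and 1.99 FPKM in control livers. As for Serpina3n, model 1_4 was far above the rest and BBBPH 2_1 the highest BBBPH liver. Serpina3g was most alike its neighbour Serpina3f (0.92), then Tnip2 (0.88) and Ldha (0.88), and Serpina6 was most alike Zfand2b (0.94), Polr2c (0.90) and Gpd1l (0.89).

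**Figure D4:**
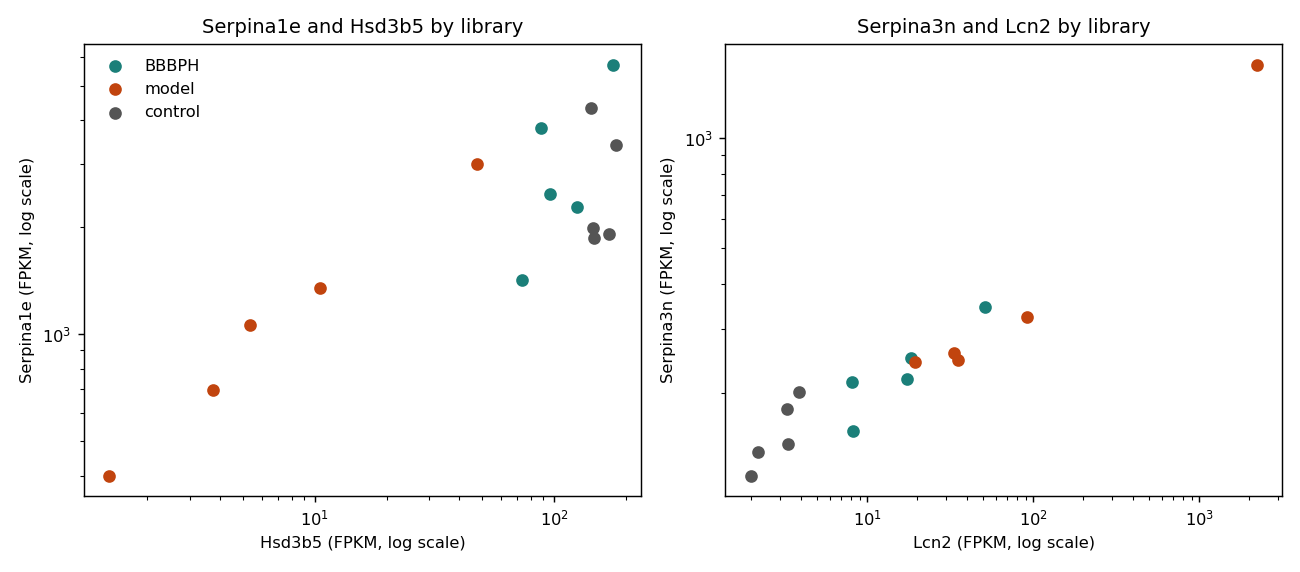
FPKM per library on log scales for Serpina1e against Hsd3b5 (left) and Serpina3n against Lcn2 (right), coloured by group. The model livers run in 1 order from model 2_1 at the lower left in the first panel, and in the second model 1_4 lies alone at 1591 FPKM of Serpina3n and 2236 FPKM of Lcn2.

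Of the other clade A serpins, 5 averaged 1 FPKM or more. Serpina7, on the X chromosome, encodes thyroxine-binding globulin, and held 74.8 ± 34.5 FPKM in model livers and 20.1 ± 7.49 FPKM in control livers (log2FC 1.77, limma adjusted p = 0.00198). Serpina10, which encodes the protein Z-dependent inhibitor of the coagulation cascade, held 187 ± 84.4 FPKM in model livers and 119 ± 5.28 FPKM in control livers (log2FC 0.56, limma adjusted p = 0.0258). That call ended without model 2_3 or control 3_4, with median-ratio or quantile scaling and with only model and control libraries in the fit (limma adjusted p = 0.0506 to 0.104), and without model 1_4 the log2 fold change was 0.32. Serpina3f held 4.23 ± 0.959 FPKM in model livers and 2.53 ± 1.13 FPKM in control livers (log2FC 0.60, limma adjusted p = 0.0141), which was lost with median-ratio scaling or without the 3 libraries (limma adjusted p = 0.0524 and 0.0921). Serpina11 held 63.0 ± 3.34 FPKM in BBBPH livers and 44.5 ± 11.7 FPKM in model livers (log2FC 0.53, limma adjusted p = 0.00774). Serpina12, which encodes the adipokine vaspin, was not called in any of the 3 comparisons (log2FC 0.03, -0.09 and -0.05 in model against control, BBBPH against model and BBBPH against control). Between BBBPH and control livers limma called 0 of the 5, and 2 had an unadjusted p under 0.05, while without BBBPH 2_1, control 1_5, model 1_4 or model 3_4 up to 2 were called higher.

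Genes that act on or with these serpins were taken from lists. Each list count, above and below, is to be read beside the share over all genes. In model against control livers 29.9% of all genes were higher and 8.64% lower. In BBBPH against model livers these shares were 14.2% and 12.2%, and in BBBPH against control livers 24.4% and 3.7%. Of 12 serpins of other clades tested, 4 were higher and 3 lower in model than in control livers, and 1 lower without the 3 libraries that stood apart. All 7 stellate cell and fibroblast markers were higher in model than in control livers, and 4 of the 7 lower in BBBPH than in model livers. Their part in the next values was not tested. The collagen chaperone gene Serpinh1 held 14.8 ± 1.78 FPKM in model livers and 7.19 ± 1.11 FPKM in control livers (log2FC 0.95, limma adjusted p = 1.05e-05) and 7.06 ± 0.693 FPKM in BBBPH livers and 14.8 ± 1.78 FPKM in model livers (log2FC -0.97, limma adjusted p = 1.4e-05). Serpinb1a, for an intracellular inhibitor of neutrophil proteases, held 3.64 ± 1.93 FPKM in model livers and 0.656 ± 0.296 FPKM in control livers (log2FC 1.39, limma adjusted p = 0.00042). Serpinf1 held 344 ± 40.6 FPKM in model livers and 452 ± 19.5 FPKM in control livers (log2FC -0.40, limma adjusted p = 0.000936) and was lower in BBBPH than in control livers as well (log2FC -0.37, limma adjusted p = 0.00341), as Serpina1d was. Of 6 proteases that clade A serpins inhibit, none was called in all left-out-library fits except F11, for coagulation factor XI, which held 25.8 ± 5.56 FPKM in BBBPH livers and 14.4 ± 1.53 FPKM in model livers (log2FC 0.77, limma adjusted p = 0.00777).

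Genes of the secretory path moved in both comparisons with model livers. Of 18 genes for the folding, export and disposal of alpha-1-antitrypsin in the endoplasmic reticulum, 11 were higher in model than in control livers, with a median log2 fold change of 0.40 for the list and 0.117 for all genes. Under BBBPH 10 were lower than in model livers and 2 higher (1 to 3 as single libraries were left out, moving without BBBPH 2_2, BBBPH 3_2, model 1_1, model 2_1 or model 3_4), with a list median of -0.34 and 0.0192 for all genes. Syvn1, the ubiquitin ligase of this disposal, held 43.7 ± 8.35 FPKM in model livers and 10.9 ± 2.75 FPKM in control livers (log2FC 1.93, limma adjusted p = 3.76e-06) and 9.39 ± 2.13 FPKM in BBBPH livers. The disulfide isomerase gene Pdia4 held 221 ± 39.6 FPKM in model livers and 64.8 ± 12.9 FPKM in control livers (log2FC 1.75, limma adjusted p = 3.99e-06). Hspa5, for the chaperone BiP, held 175 ± 36.7 FPKM in BBBPH livers and 842 ± 171 FPKM in model livers (log2FC -2.26, limma adjusted p = 1.41e-06) and was below control livers too (log2FC -0.69, limma adjusted p = 0.00627). The cargo receptor gene Ergic3 ran the other way, with 51.4 ± 3.52 FPKM in BBBPH livers and 41.7 ± 1.54 FPKM in model livers (log2FC 0.29, limma adjusted p = 0.00274).

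Of 29 genes of the acute phase and of interleukin-6 and interleukin-1 signalling, 14 were higher and 1 lower in model than in control livers (list median 0.50), and 11 were higher without the 3 libraries that stood apart. Lcn2 had a log2 fold change of 4.51 (limma adjusted p = 0.00178). Under BBBPH 6 were lower than in model livers and 1 higher, but the lower count ran from 3 to 11 as single libraries were left out, moving over 1.5 times without BBBPH 2_1, BBBPH 2_2, BBBPH 3_1 or BBBPH 3_2, and the 1 higher gene was lost without BBBPH 2_2, BBBPH 3_2, BBBPH 3_4, model 1_4, model 2_3 or model 3_4. Compared with control livers, BBBPH livers had 3 higher, 8 without model 1_4, and 1 was lower, 3 without BBBPH 3_4. The lower gene was Socs3, with 1.88 ± 0.444 FPKM in BBBPH livers and 6.97 ± 4.5 FPKM in control livers (log2FC -1.29, limma adjusted p = 0.014). Saa3 held 21.4 ± 5.65 FPKM in BBBPH livers and 6.18 ± 1.81 FPKM in control livers (log2FC 1.64, limma adjusted p = 0.00464) and Lbp, for the lipopolysaccharide-binding protein, 51.5 ± 5.76 FPKM in BBBPH livers and 30.2 ± 8 FPKM in control livers (log2FC 0.78, limma adjusted p = 0.00321). Of 17 interferon response genes 13 were higher in model than in control livers, with Isg15 at 14.8 ± 3.79 FPKM in model livers and 6.31 ± 1.53 FPKM in control livers (log2FC 1.11, limma adjusted p = 0.00294). Under BBBPH 8 of the 17 were lower than in model livers, Isg15 and Ifit1 among them (log2FC -1.30 and -1.20), and 1 was higher except without model 1_1.

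Of 17 genes of the growth hormone axis tested, 7 were lower in model than in control livers, with Hsd3b5 at a log2 fold change of -4.24 (limma adjusted p = 5.45e-05) and the transporter gene Slco1a1 at -2.60 (0.000293). Higher were 2, a count that moved to 1 or 3 without BBBPH 2_2, control 1_1, control 1_5, control 2_2, model 1_1, model 2_1, model 2_3 or model 3_4. Stat5a, which was called in every such fit, held 2.79 ± 0.363 FPKM in model livers and 1.33 ± 0.121 FPKM in control livers (log2FC 0.70, limma adjusted p = 0.000125). Under BBBPH 4 were higher than in model livers, 3 to 6 as single libraries were left out, with Hsd3b5 at 3.69 (limma adjusted p = 0.000229) and Slco1a1 at 2.47 (0.000617). Elovl3, a fatty acid elongase gene, was the 1 gene lower, with 40.7 ± 71.8 FPKM in BBBPH livers and 75.2 ± 39.7 FPKM in model livers (log2FC -2.03, limma adjusted p = 0.0422), which was lost under 13 alternatives, among them the fits without BBBPH 2_2, BBBPH 3_1, BBBPH 3_2, BBBPH 3_4, model 1_1, model 2_3, model 3_4, control 1_5 or control 2_2 (limma adjusted p = 0.0519 to 0.108). Relative to control livers, 3 of the 17 genes were lower in BBBPH livers, 3 to 5 as single libraries were left out. Higher were 2, and 1 without BBBPH 3_2. Among the lower were Cish (log2FC -2.05, limma adjusted p = 0.0131) and Cyp4a12b (-1.86, 0.0113), and Stat5a was higher (0.98, 4.88e-05). Hsd3b5 was not called there (log2FC -0.55, limma adjusted p = 0.473). Of 16 genes of glucocorticoid handling and glucocorticoid response, the context of Serpina6, 4 were lower and 2 higher in BBBPH than in model livers. The target genes Zbtb16 and Tat were lower (log2FC -2.21 and -1.16), and Srd5a1, which inactivates steroids by reduction, was higher (0.98). Hsd11b1 was higher too (0.43, limma adjusted p = 0.0177), which was lost without the 3 libraries that stood apart (0.0553). Relative to control livers, 1 gene was higher in BBBPH livers and 4 were lower, 3 to 6 as single libraries were left out. The higher one was the response gene Fkbp5 (log2FC 1.005, limma adjusted p = 0.00959), while Tat and Srd5a1 were lower (-1.62 and -0.70). Between model and control livers 2 were higher and 2 lower, with Zbtb16 at 1.47 and Srd5a1 at -1.68, and the calls of the other 2, Fkbp5 and Hsd11b1, ended under 11 and 4 alternatives (limma adjusted p = 0.0504 to 0.144 and 0.0528 to 0.0796). Among these were the fits without model 1_4, model 2_1, model 2_3, model 3_4, control 1_5, control 2_1 or control 2_2 for Fkbp5, and without model 2_3 or control 2_2 for Hsd11b1, whose log2FC of -0.38 was -0.25 without model 1_4. Nr3c1, the glucocorticoid receptor gene, was not called in BBBPH against model livers (log2FC 0.24, limma adjusted p = 0.067).

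All 12 hepatocyte transcription factor genes were tested. In model against control livers Foxa1 was lower (log2FC -0.72, limma adjusted p = 0.0218), which was lost without model 1_1, model 3_4, control 1_1 or control 3_4 (limma adjusted p = 0.0551 to 0.0577). Between BBBPH and model livers 3 were higher in BBBPH and 3 lower. Hnf4a, whose product drives many liver-specific genes, held 134 ± 20.7 FPKM in BBBPH livers and 193 ± 7.58 FPKM in model livers (log2FC -0.54, limma adjusted p = 0.00147), and Foxa3 17.5 ± 3.44 FPKM in BBBPH livers and 28.2 ± 3.07 FPKM in model livers (log2FC -0.67, limma adjusted p = 0.00337). Prox1 held 20.5 ± 6.60 FPKM in BBBPH livers and 9.92 ± 2.01 FPKM in model livers (log2FC 0.94, limma adjusted p = 0.00361). Relative to control livers, 4 were higher and 3 lower in BBBPH livers, with Prox1 at a log2 fold change of 1.01 and Foxa3 at -1.01.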

How the data were processed

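Liver RNA of 15 mice was sequenced and FPKM values were deposited by the authors for each library and as a joint table, which did not differ (largest difference 0 FPKM). Fastp, HISAT2, HTSeq, DESeq2 and the mm10 build are named in the submitters' processing notes without roles or versions. RNA was TRIzol-extracted and made into VAHTS Universal V6 libraries, per the labels' protocols. The annotation, strand setting and handling of fragments that fit several genes are not given in the sources used here.

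From the FPKM values, log2(FPKM + 1) was fitted for the 9575 genes that averaged 1 FPKM or more with limma 3.58.1 (R 4.3.3, statmod 1.5.0) as 3 group means over 15 libraries (12 residual degrees of freedom, eBayes with trend), with Benjamini-Hochberg adjustment over all of them. All 10 members passed that filter. The procedure was tested on simulated data. Fragment totals were recovered from whole-number ratios of FPKM, which gave a length for 15824 of 17051 genes above 0 (92.8%, tolerance 0.02 of a fragment), and served only for depth and for a voom fit. MAFFT 7.526 aligned the sequences. Promoter windows were those of RefSeq on GRCm38.p6, while coding sequences, loop stretches and reference transcripts were those of GENCODE on GRCm38. The other steps used scipy 1.17.1, matplotlib 3.10.9, pandas 2.3.3 and numpy 2.4.6 under Python 3.11.15.

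The members and lists were chosen with earlier results of these data known. The text names all 10 members, for each the 3 genes with the highest Pearson r, all other clade A serpins tested, and from each list the called genes with the largest and smallest log2 fold change. Of these list genes it gives mainly those called under every single library left out. Some list genes are not reported here. Outside this rule, Nr3c1 and the marker genes of libraries that stood apart were chosen after their values were seen. There were 29 alternatives: other pseudocounts, filters, scalings, fits, replicate blocks and left-out libraries, and, added after seeing the data, the 3 libraries that stood apart left out together and voom.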

Additional observations from a re-analysis of the deposited data

Results flagged for a closer look

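Within groups of 5 livers, the gap of the highest or lowest to its neighbour was compared with the whole range (Dixon's critical value 0.71) in 30 sets, 10 genes in 3 groups. By chance about 1 set in 20 is marked. In 3 sets a liver lay far from the rest. Serpina1b was lowest in model 1_4, at 2637 FPKM, with the other model livers between 3221 and 3438 FPKM. Serpina3n was highest in the same liver, at 1591 FPKM, with the other model livers between 243 and 325 FPKM. Serpina1c was highest in model 3_4, at 2054 FPKM, with the other model livers between 1281 and 1437 FPKM. Model 1_4 also had the lowest summed hepatocyte markers of the 15 livers (36150 FPKM) and by far the most Saa2 (14965 FPKM). The part of these differences in the values of Serpina1b and Serpina3n was not tested.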

How the results depend on the processing

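Across 29 alternatives in 3 comparisons, 772 member values kept their direction and side of the threshold, 28 passed it, 47 no longer passed and 23 changed sign. In model against control livers the direction of all 10 members held in all 29, and 4 to 10 were called. The labels do not say that replicate numbers pair mice, and same-numbered libraries did not deviate together (8 pairs, residual correlations -0.33 to 0.02). With the replicate block by whole number, 4 members were called in model against control livers and 0 in BBBPH against model livers by limma (2 at unadjusted p under 0.05, and 3 by voom with no block), and with the block by first digit 1 was called in the second. In BBBPH against control livers 5 were called with library weights and 5 with only these 2 groups in the fit, and 2 to 6 with single libraries left out, 5 without BBBPH 2_1 and 6 without model 1_4. Signs changed among values that were not called. In BBBPH against model livers, Serpina1d had a log2 fold change of 0.0166 with quantile scaling and -0.0845 to 0.0394 with single libraries left out. Serpina3m had 0.0452 with library weights, 0.201 and 0.155 with the replicate block (whole number, first digit), 0.0838 without the 3 libraries that stood apart and -0.114 to 0.0687 with single libraries left out. Serpina3n had 0.239 with the whole-number block. In BBBPH against control livers, Serpina1a had 0.0840 with quantile scaling, 0.0255 without the 3 libraries and -0.0507 to 0.0165 with single libraries left out. Serpina1e had -0.0265 with median-ratio scaling, -0.310 and -0.322 with the replicate block, and -0.108 to 0.395 with single libraries left out. The cause of these changes was not tested. Depth limited no member, and the number of mice limits the precision.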
